A study of Homo sapiens with 6 samples.

Results

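The glioblastoma cell line LN-229 was transfected with a pool of siRNAs against the long non-coding RNA HOTAIRM1, and its RNA was compared with that of the same line transfected with a non-target pool. The comparison holds 2 of the 6 libraries of the series, chosen by cell line and siRNA pool alone: LN-229 siControl and LN-229 siHOTAIRM1, each harvested at 72 h. The other 4 libraries are the same pair of treatments in the glioblastoma lines T98G and U251. LN-229 is an established line, titled LNT229 in the sample names, and every library is an unsorted bulk culture. Both arms received siPOOLs, mixtures of many siRNAs, by lipid transfection, so the control carries the reagent and an unrelated pool but no untreated culture stands beside it. Libraries were made from total RNA with a TruSeq RNA kit, and each arm is 1 library. There are therefore no replicates, and all intervals given cover counting error alone.

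RNA levels are given in CPM, reads of a gene scaled to the size of its library. The LN-229 siControl library held 88.3 M reads, of which 41.5 M fell on the 59074 listed genes, and the LN-229 siHOTAIRM1 library held 104 M, of which 50.4 M fell on them. A level of 3 reads, taken as the smallest that can be told from 0, corresponds to 0.0340 CPM in the siControl library and 0.0289 CPM in the siHOTAIRM1 library. A change is the difference of log2(CPM + 1), siHOTAIRM1 minus siControl, after subtraction of the median change (0.01) of all genes whose LN-229 mean reached 1 CPM (13794 genes past this filter). Genes past 1.5-fold on that scale are said to have risen or fallen. A ratio is the siHOTAIRM1 level divided by the siControl level after removal of the same median, with its 95% interval from the number of reads.

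HOTAIRM1 is transcribed from the HOXA cluster, antisense to the neighbouring homeobox genes, and was described in myeloid cells before it was studied in glioma. An siRNA guides Argonaute proteins to a complementary RNA, which is cut and degraded, so the level of the target reports whether the pool entered the cells. Glioblastoma lines keep parts of the programmes of neural stem, glial and mesenchymal cells, and many also express secreted inflammatory factors and, in some lines, the MHC class II molecules that display extracellular peptides to helper T cells.

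Markers of neural stem and mesenchymal glioma cells were present. The astrocyte genes GFAP, SOX9 and AQP4 were near absent, but other glial genes of the same list passed the filter, so these genes do not stand for the whole list. Of 12 glial and neural stem markers, 7 passed the filter, with changes from -0.55 to 0.20. The summed level of the 12 was 408 CPM in siControl and 402 CPM in siHOTAIRM1 cells. The neural stem cell filament nestin (NES) stood at 368 CPM in siControl and 359.7 CPM in siHOTAIRM1 cells, and vimentin (VIM) at 635 and 652 CPM. The stem cell factor SOX2 was present at 8.15 and 8.60 CPM. Of these astrocyte genes, the filament GFAP was at 0.317 and 0.298 CPM, SOX9 at 0.0227 and 0.0289 CPM, and the water channel AQP4 at 0.0340 and 0.00962 CPM. Oligodendrocyte genes were not absent, with the myelin enzyme CNP at 71.3 and 76.2 CPM. Of 8 immune cell markers, 0 passed the filter, with a summed level of 0.830 CPM in siControl and 0.859 CPM in siHOTAIRM1 cells, nearly all of it CD68, and TYROBP and C1QA were listed at 0 in both. Of 6 endothelial markers, 0 passed the filter (summed level 0.668 and 0.705 CPM). The epithelial genes EPCAM, CDH1, KRT19 and KRT5 were listed at 0 in both libraries, while the keratin KRT18, found in many tumour lines, was at 93.9 and 76.2 CPM. Of 8 neuronal markers, RBFOX3, DCX and STMN2 were listed at 0 in both libraries, but 4 passed the filter. The summed level of the 8 was 36.1 CPM in siControl and 30.9 CPM in siHOTAIRM1 cells. Of the 26 markers of any type that passed the filter, 0 rose and 1 fell, the synaptic vesicle gene SYT1 (18.6 to 11.9 CPM). Over all genes past the filter, 0.848% rose and 0.776% fell.

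HOTAIRM1 itself was lower in the siHOTAIRM1 library. Its level was 1.99 CPM in siControl cells (95% Wilson interval 1.72 to 2.31) and 0.952 CPM in siHOTAIRM1 cells (0.782 to 1.16), intervals that do not overlap, and the ratio was 0.473 (0.370 to 0.605). The RNA is scarce in this line, so the pseudocount of 1 CPM shrinks its change to -0.63, and a pseudocount of 0.1 CPM gave -1.01. In bulk RNA, loss of the transcript from some cells and a smaller amount in every cell cannot be told apart. In T98G the level was 3.49 CPM in siControl and 2.14 CPM in siHOTAIRM1 cells, and in U251 it was 1.27 and 0.622 CPM, so the library labelled siHOTAIRM1 had the lower value in all 3 lines. The gene lies at chr7:27095647-27100265 on the plus strand (hg38), and whether the read counts used the strand is not stated.

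The homeobox genes around HOTAIRM1 did not fall with it. HOXA3 was at 1.246 CPM in siControl and 2.01 CPM in siHOTAIRM1 cells, HOXA5 at 1.21 and 1.73 CPM and HOXA10 at 4.79 and 6.63 CPM. With the pseudocount of 1 CPM, these 3 stayed within 1.5-fold. The flanking gene SKAP2 was at 13.4 and 11.6 CPM.

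Genes that the study follows moved less than HOTAIRM1. The transglutaminase TGM2, a calcium-dependent protein crosslinker, was at 43.6 CPM in siControl and 31.3 CPM in siHOTAIRM1 cells, a ratio of 0.711 (0.678 to 0.744) and a change of -0.48, which lies short of 1.5-fold but well outside counting error. It was the only 1 of 8 transglutaminase genes past the filter in LN-229. TGM2 was at 8.31 and 9.38 CPM in T98G, and the U251 libraries held about a read of it or none. MIR17HG, the host transcript of the microRNA cluster that holds miR-17, was at 12.99 and 11.3 CPM. The receptor EGFR (52.6 and 50.3 CPM) and the guidance factor SEMA3A (25.9 and 30.8 CPM), both on chromosome 7, gave changes of -0.08 and 0.22. The glycolytic enzyme PGK1, a common reference gene, was at 207 and 222 CPM. SNAI2, a transcription factor of mesenchymal transition, was at the level of 3 reads in both libraries, and MEOX2 was listed at 0, so no change of either can be read from these values.

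Most of the transcriptome hardly moved. Of the 13794 genes past the filter, 117 rose (0.848%) and 107 fell (0.776%), and 15 rose and 15 fell past 2-fold. The counting interval left out 0 for all 117 and all 107. The filter takes the mean of both libraries, so a gene past 1.5-fold may be under 1 CPM in the lower one, as HOTAIRM1, COL6A3, FLG, PDGFB and SERPINB7 were in siHOTAIRM1 and SAA2, CP, SEMA6B and MGP in siControl cells. The middle 95% of changes ran from -0.39 to 0.41. The spread of changes was wider than counting allows: among genes of 100 to 300 CPM the SD was 0.213 against a median counting SD of 0.0174, and among genes of 1 to 3 CPM it was 0.213 against 0.1004. How much of that spread would also appear between repeated control cultures cannot be read from 1 library per arm. Under the same rule, T98G had 192 higher (1.40%) and 161 lower (1.18%) of 13678 genes, and U251 had 779 higher (5.83%) and 1030 lower (7.70%) of 13371, so LN-229 held the fewest genes past 1.5-fold, a difference that was not tested. With a pseudocount of 0.1 CPM, 221 genes were higher and 173 lower in LN-229.

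**Figure D1:**
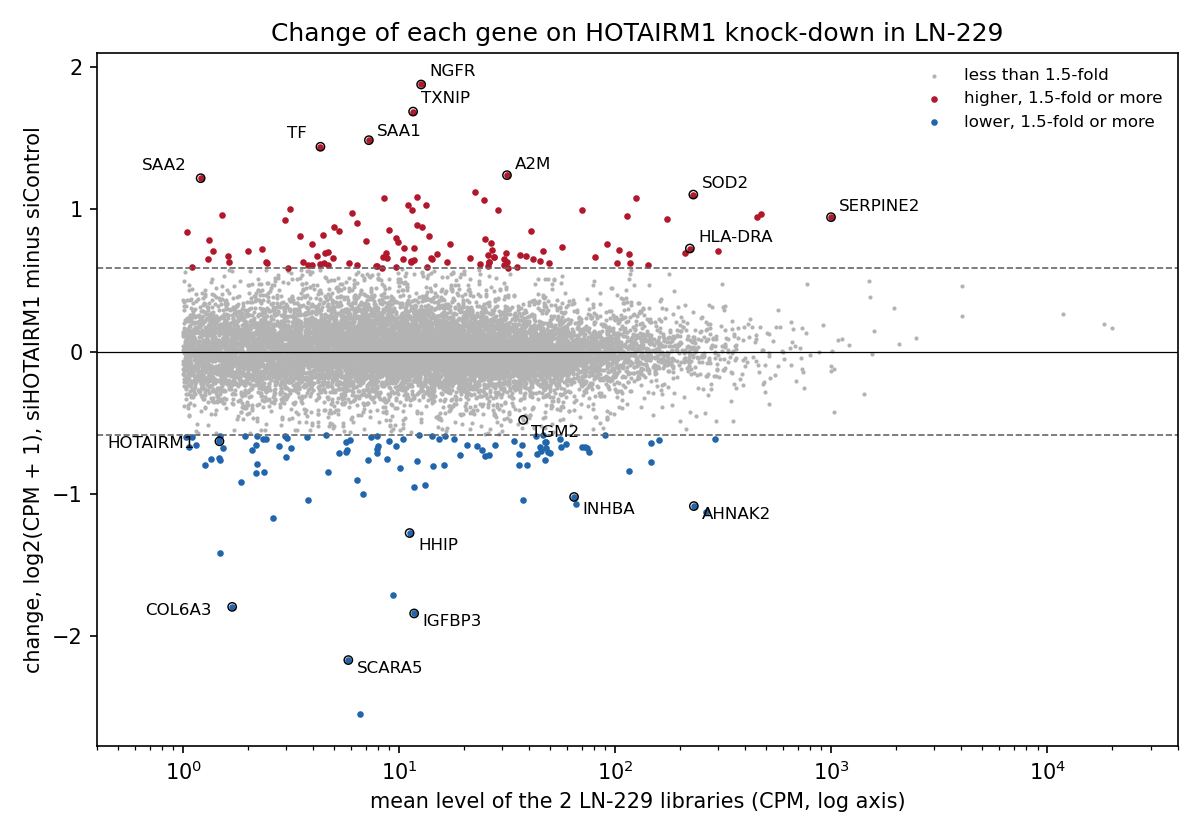
Each point is a gene past the filter in LN-229, with its mean level in CPM on a log axis and its centred log2 change, siHOTAIRM1 minus siControl; dashed lines mark 1.5-fold. The cloud lies close to 0 at all levels, with NGFR (1.88) and TXNIP (1.69) at the top and SCARA5 (-2.17) and IGFBP3 (-1.84) near the bottom.

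By change in log2(CPM + 1), the largest rises among genes with an annotated symbol were the neurotrophin receptor NGFR, the alpha-arrestin TXNIP, the serum amyloid protein SAA1, the iron carrier TF, the protease inhibitor A2M, the serum amyloid protein SAA2, the repressor NACC2 and the mitochondrial enzyme SOD2. The deepest falls among such genes on that scale were the scavenger receptor SCARA5, the growth factor binding protein IGFBP3, the collagen chain COL6A3, the Hedgehog inhibitor HHIP and the actin bundler LCP1. Of the 117 genes that rose, 111 were annotated as protein-coding, and of the 107 that fell, 88, beside 11406 of the 13794 genes past the filter. Families are described by 43 gene lists. Of these, 12 (named where they occur) were written after the values had been seen. The other 31 were written first, but with earlier results of these data known. Counts of all lists therefore describe those genes and carry no independent weight. Counts of members past 1.5-fold stand against the 0.848% higher and 0.776% lower over all genes.

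**Figure D2:**
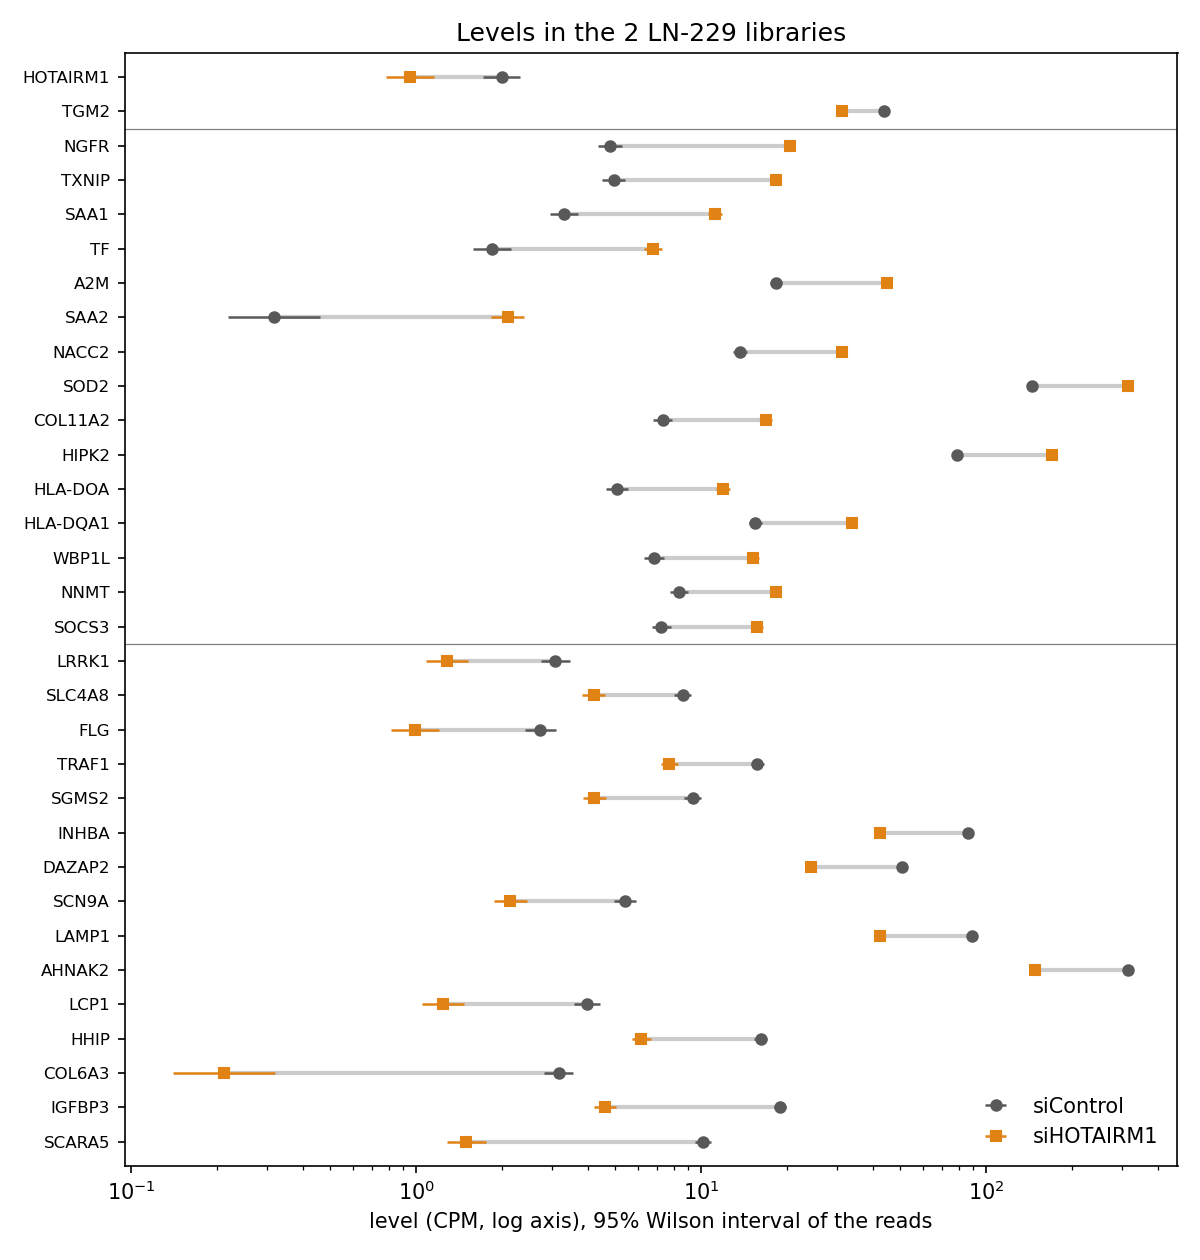
Levels in CPM (log axis) in LN-229 siControl (circles) and siHOTAIRM1 (squares) cells for HOTAIRM1, TGM2 and the 15 named genes that rose most and the 15 that fell most, with 95% Wilson intervals. NGFR moved from 4.79 to 20.47 CPM and SCARA5 from 10.1 to 1.501 CPM, and for both genes the intervals of the libraries are far apart.

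**Figure D3:**
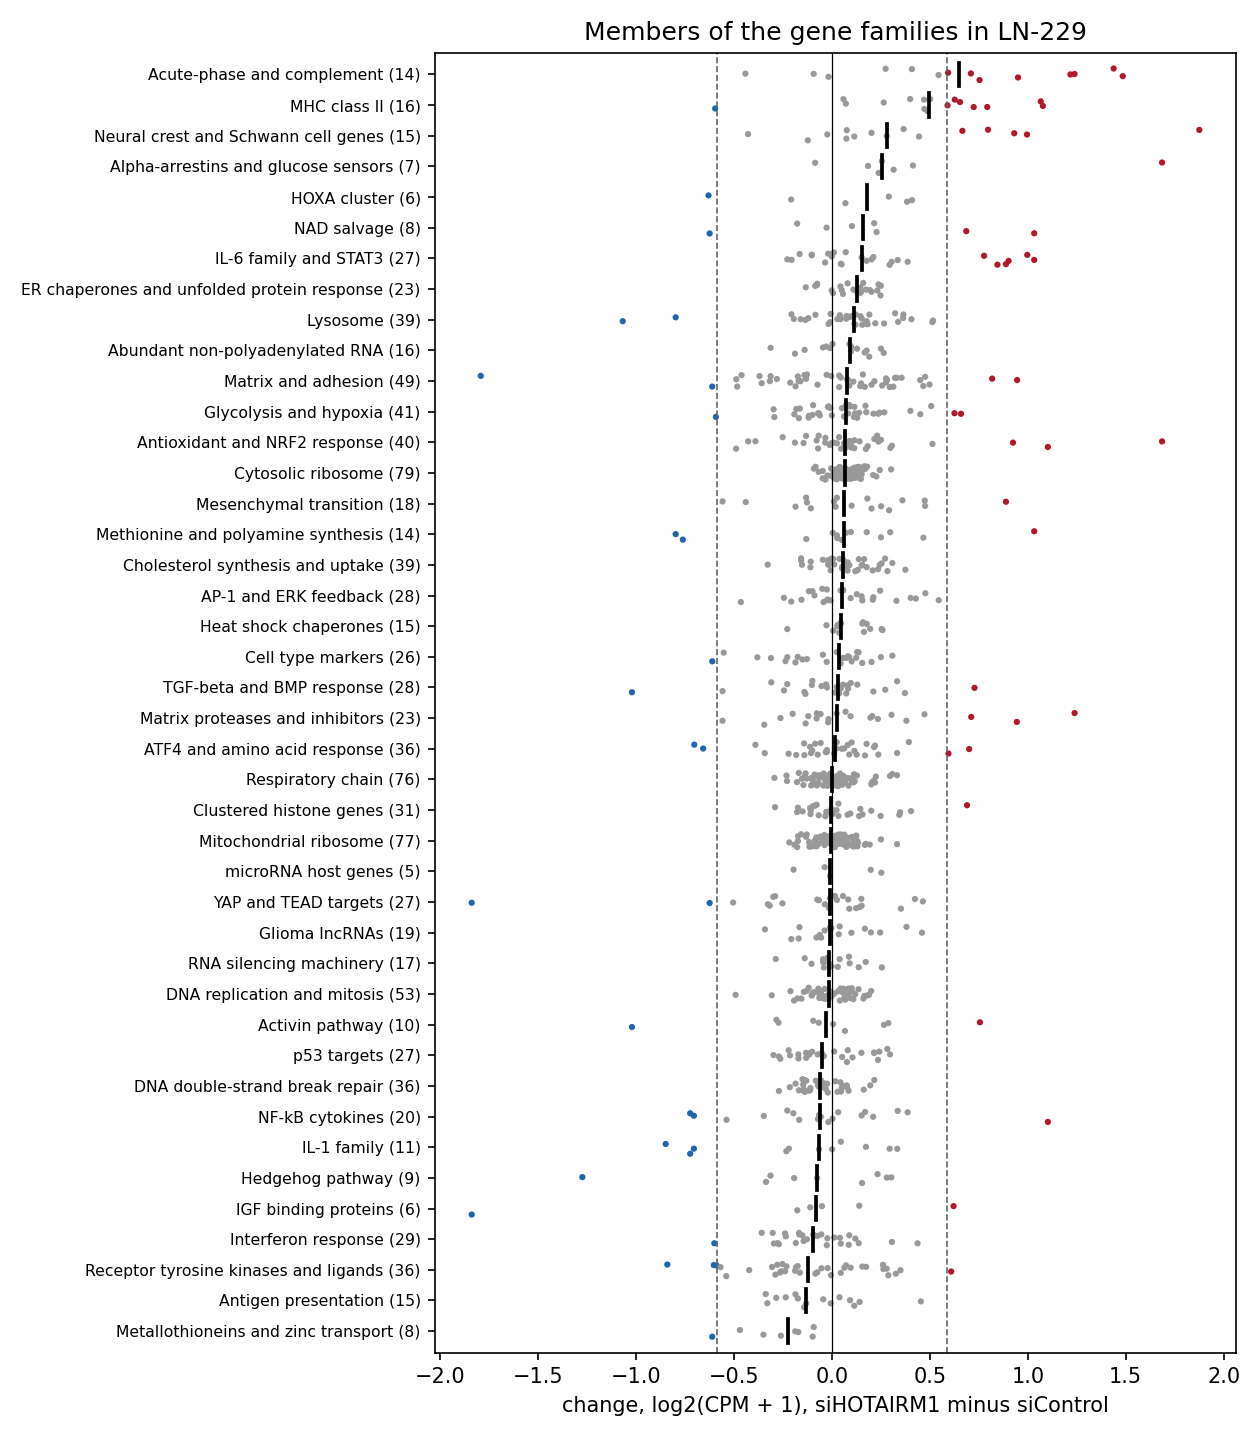
Centred log2 change of each family member past the filter in LN-229 (points) and the family median (black bar), with the number of members in brackets, for families with at least 3 such members. Medians lie near 0 for the ribosome, respiratory chain and cell cycle families and highest for acute-phase and complement genes (0.65) and MHC class II genes (0.49).

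Most MHC class II genes were shifted upwards in LN-229, part of them short of 1.5-fold. Of the 19 genes in this list (written after the values were seen), 16 passed the filter, 7 rose and 1 fell, against 0.848% and 0.776% over all genes, and 15 of the 16 had a change above 0. Their median change was 0.49 under the main scaling and stayed between 0.47 and 0.53 under every other pseudocount, filter and scaling tried. The summed level of the list went from 865 CPM in siControl to 1233 CPM in siHOTAIRM1 cells. In T98G the same list summed to 142 and 94.5 CPM with 0 of 10 genes higher and 1 lower, and in U251 to 58.2 and 51.6 CPM with 4 genes past the filter. The difference between lines was not tested.

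The rises were spread over peptide-binding chains, loading factors and the coactivator of the family. HLA-DRA, the alpha chain of the DR pair, went from 166 CPM in siControl to 277 CPM in siHOTAIRM1 cells, a ratio of 1.66 (1.62 to 1.69). HLA-DQA1, the alpha chain of the DQ pair, went from 15.5 to 33.9 CPM (2.17-fold), its partner HLA-DQB1 from 20.1 to 31.9 CPM, and HLA-DPB1 from 25.003 to 38.5 CPM. The other chains moved the same way but short of 1.5-fold. HLA-DPA1 was at 87.5 and 117 CPM and HLA-DRB1 at 119.6 and 168 CPM. HLA-DRB5 (14.9 and 21.7 CPM) is so like HLA-DRB1 that reads may be divided wrongly between them, so the split between the pair is uncertain. Among the genes that load peptide, HLA-DMA, a chain of the exchange factor DM, rose from 17.8 to 32.0 CPM, and HLA-DOA, a chain of its modulator DO, from 5.06 to 11.9 CPM. HLA-DMB was at 8.62 and 12.6 CPM, and the invariant chain CD74, which escorts new class II molecules, at 261 and 365 CPM. CIITA, the coactivator that switches class II promoters on, rose from 16.2 to 26.4 CPM. The subunits of the promoter-binding RFX complex did not move with it, with changes of 0.07 for RFX5, 0.06 for RFXAP and 0.26 for RFXANK. The member that fell was CTSS (51.6 to 34.1 CPM), the cathepsin that trims the invariant chain.

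Class II genes lie side by side on chromosome 6, and the genes that rose there were mainly class II genes. Between chr6:32439878-33192499 (hg38), 36 genes are listed and 17 passed the filter. Of the 10 class II genes among them, 6 rose and the median change was 0.61. Of the 7 others, which include the non-coding class II copy HLA-DRB6 (0.38), 1 rose and the median was -0.17. The riser was COL11A2, a fibrillar collagen chain, which went from 7.34 to 16.9 CPM. The peptide transporters TAP1 and TAP2 and the proteasome subunits PSMB8 and PSMB9, which serve class I display and sit among the class II genes, had changes of -0.24, -0.19, -0.17 and -0.28. CIITA lies on another chromosome.

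Promoters of 5 class II genes are shown, of which HLA-DRB1 was short of 1.5-fold and the others rose, because they share a known layout, an X box bound by the RFX complex followed by a Y box bound by NF-Y. The sequences are from RefSeq on GRCh38.p14 and read 5′ to 3′ on the strand of the gene, with capitals for the letters GNNACNGA and ATTGG. That pattern was written after these promoters had been looked at.
HLA-DRB1: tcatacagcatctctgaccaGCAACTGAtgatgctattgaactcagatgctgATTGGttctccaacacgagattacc
HLA-DQA1: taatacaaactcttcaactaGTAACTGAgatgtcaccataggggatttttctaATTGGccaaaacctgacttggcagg
HLA-DQB1: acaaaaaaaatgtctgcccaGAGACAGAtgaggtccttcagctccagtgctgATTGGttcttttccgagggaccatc
HLA-DMA: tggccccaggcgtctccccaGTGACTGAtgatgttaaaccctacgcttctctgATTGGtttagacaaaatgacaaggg
HLA-DOA: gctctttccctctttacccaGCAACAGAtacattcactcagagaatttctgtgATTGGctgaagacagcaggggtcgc
The stretch of HLA-DRB1 is at chr6:32589870-32589946 on the minus strand, that of HLA-DQA1 at chr6:32637285-32637362 on the plus strand, and that of HLA-DQB1 at chr6:32666721-32666797 on the minus strand. Those of HLA-DMA, chr6:32953152-32953229, and HLA-DOA, chr6:33009634-33009711, are on the minus strand. Each holds GNNACNGA 24 or 25 bases before ATTGG. Alone, GNNACNGA occurred on either strand in 41.3% of 35116 windows from 250 bases before to 50 bases after a gene start, and ATTGG in 34.6%. In this order with 20 to 30 bases between them, the pair occurred in 0.513% of windows on either strand and in 0.288% on the strand of the gene. HLA-DRB5 held the pair too, and the windows of CD74, HLA-DMB, HLA-DPA1, HLA-DPB1, RFX5, RFXAP and RFXANK did not hold it in this order and spacing. HLA-DPB1 held both sets of letters, but not in that layout. HLA-DRA and CIITA had no window in the reference used. Of 40 genes with the pair past the LN-229 filter, 4 rose and 0 fell, beside 75 and 69 of all 9174 genes with a window. The 4 are class II genes, whose promoters gave the pattern. Outside the class II list, 34 genes held it and 0 rose, with a median change of 0.02 beside 0.00 for all genes with a window. A match is a description of the sequence.

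Several acute-phase and complement genes also rose. Of the 31 genes of this list (written after the values were seen), 14 passed the filter, 8 rose and 0 fell, beside 0.848% and 0.776% over all genes, and the median change was 0.65. Without the filter the median was 0.01, with the plasma proteins HP, ORM1, CRP and FGA listed at 0 in both libraries, so the rise concerned members past the filter. Of the acute-phase proteins 5 of 6 rose, with a median of 1.23, and the complement genes gave 3 of 8 and 0.48. Of the acute-phase risers, SAA2 and CP were under 1 CPM in siControl and passed the filter on the mean through the siHOTAIRM1 library. With a filter of 5 CPM, 5 genes of the list rose and the median was 0.54.

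The acute-phase members that rose are secreted proteins best known from plasma. SAA1, a serum amyloid A protein that rides on high-density lipoprotein, went from 3.31 CPM to 11.2 CPM, a ratio of 3.35 (2.94 to 3.80). SAA2 went from 0.317 to 2.09 CPM (6.54, 4.41 to 9.69). The genes are close copies, so the share of each in their joint rise is uncertain. Transferrin (TF), the iron carrier of plasma, whose plasma level is known to fall in the acute phase, rose from 1.85 to 6.79 CPM and ceruloplasmin (CP), its copper-binding ferroxidase partner, from 0.668 to 1.54 CPM. A2M, a broad trap for proteases, rose from 18.2 to 44.8 CPM, a ratio of 2.44 (2.30 to 2.58). SERPINA3, a serine protease inhibitor, did not take part: it was at 1548 CPM in siControl and 1544 CPM in siHOTAIRM1 cells. LCN2, an iron-siderophore binding protein of the acute phase outside the list and singled out after its values were seen, fell from 86.2 to 54.3 CPM.

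Within complement, C1R, C1S and C3 passed 1.5-fold. C1R went from 67.2 CPM in siControl to 115 CPM in siHOTAIRM1 cells and C1S from 34.7 to 57.9 CPM, the paired proteases of the first component, which are neighbours on chromosome 12. C3, the central component, went from 76.9 to 151 CPM, a ratio of 1.94 (1.89 to 2.001), while in T98G it was lower past 1.5-fold, at 230.0 and 130.3 CPM. The membrane regulators CD55 (28.2 and 20.7 CPM), CD59 (507 and 479.7 CPM) and CD46 (71.6 and 87.6 CPM) had changes of -0.44, -0.09 and 0.27.

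A minority of the genes of the IL-6 and STAT3 axis passed 1.5-fold. Of 32 genes in this list (written after the values were seen), 27 passed the filter, 6 rose and 0 fell, beside 0.848% and 0.776% over all genes, with a median of 0.15. The receptor chain IL6R rose from 4.86 to 9.14 CPM, whereas IL6 itself (8.72 and 11.4 CPM), the shared signal chain IL6ST (251.2 and 226 CPM) and LIF (518 and 446 CPM) stayed within 1.5-fold. The 6 kinases and factors, JAK1, JAK2, TYK2, STAT3, STAT5A and STAT5B, gave 0 calls, and STAT3 was at 54.4 and 55.3 CPM. Of 12 targets and feedback genes, 5 rose. SOCS3, an inhibitor that binds the activated receptor, went from 7.25 CPM to 15.6 CPM, a ratio of 2.14 (1.95 to 2.34), and SOCS2 from 4.11 to 8.65 CPM. The transcription factor CEBPD, which drives acute-phase genes in liver, rose from 8.09 to 15.99 CPM and NFIL3 from 3.47 to 7.10 CPM. NNMT, which methylates nicotinamide, rose from 8.33 to 18.3 CPM. The rest of the targets, among them JUNB (6.39 and 7.64 CPM), TIMP1 (105 and 104 CPM) and ICAM1 (247 and 277 CPM), stayed within 1.5-fold.

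Some genes of the IL-1 family fell. Of 23 genes in this list (written after the values were seen), 11 passed the filter, 0 rose and 3 fell, beside 0.848% and 0.776% over all genes. The alarmin IL1A fell from 93.7 to 57.7 CPM (0.609 times the control level, 0.589 to 0.630) and IL1B, its secreted relative, from 24.0 to 14.3 CPM (0.589, 0.551 to 0.630). These are neighbours on chromosome 2 and the only ligands of the family past the filter. IL18R1, a chain of the IL-18 receptor, fell from 6.28 to 3.08 CPM. The receptor IL1R1 (7.76 and 8.98 CPM) and the kinase IRAK1 (61.4 and 64.0 CPM) stayed within 1.5-fold, and the family median was -0.07, with 5 of 11 above 0.

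**Figure D4:**
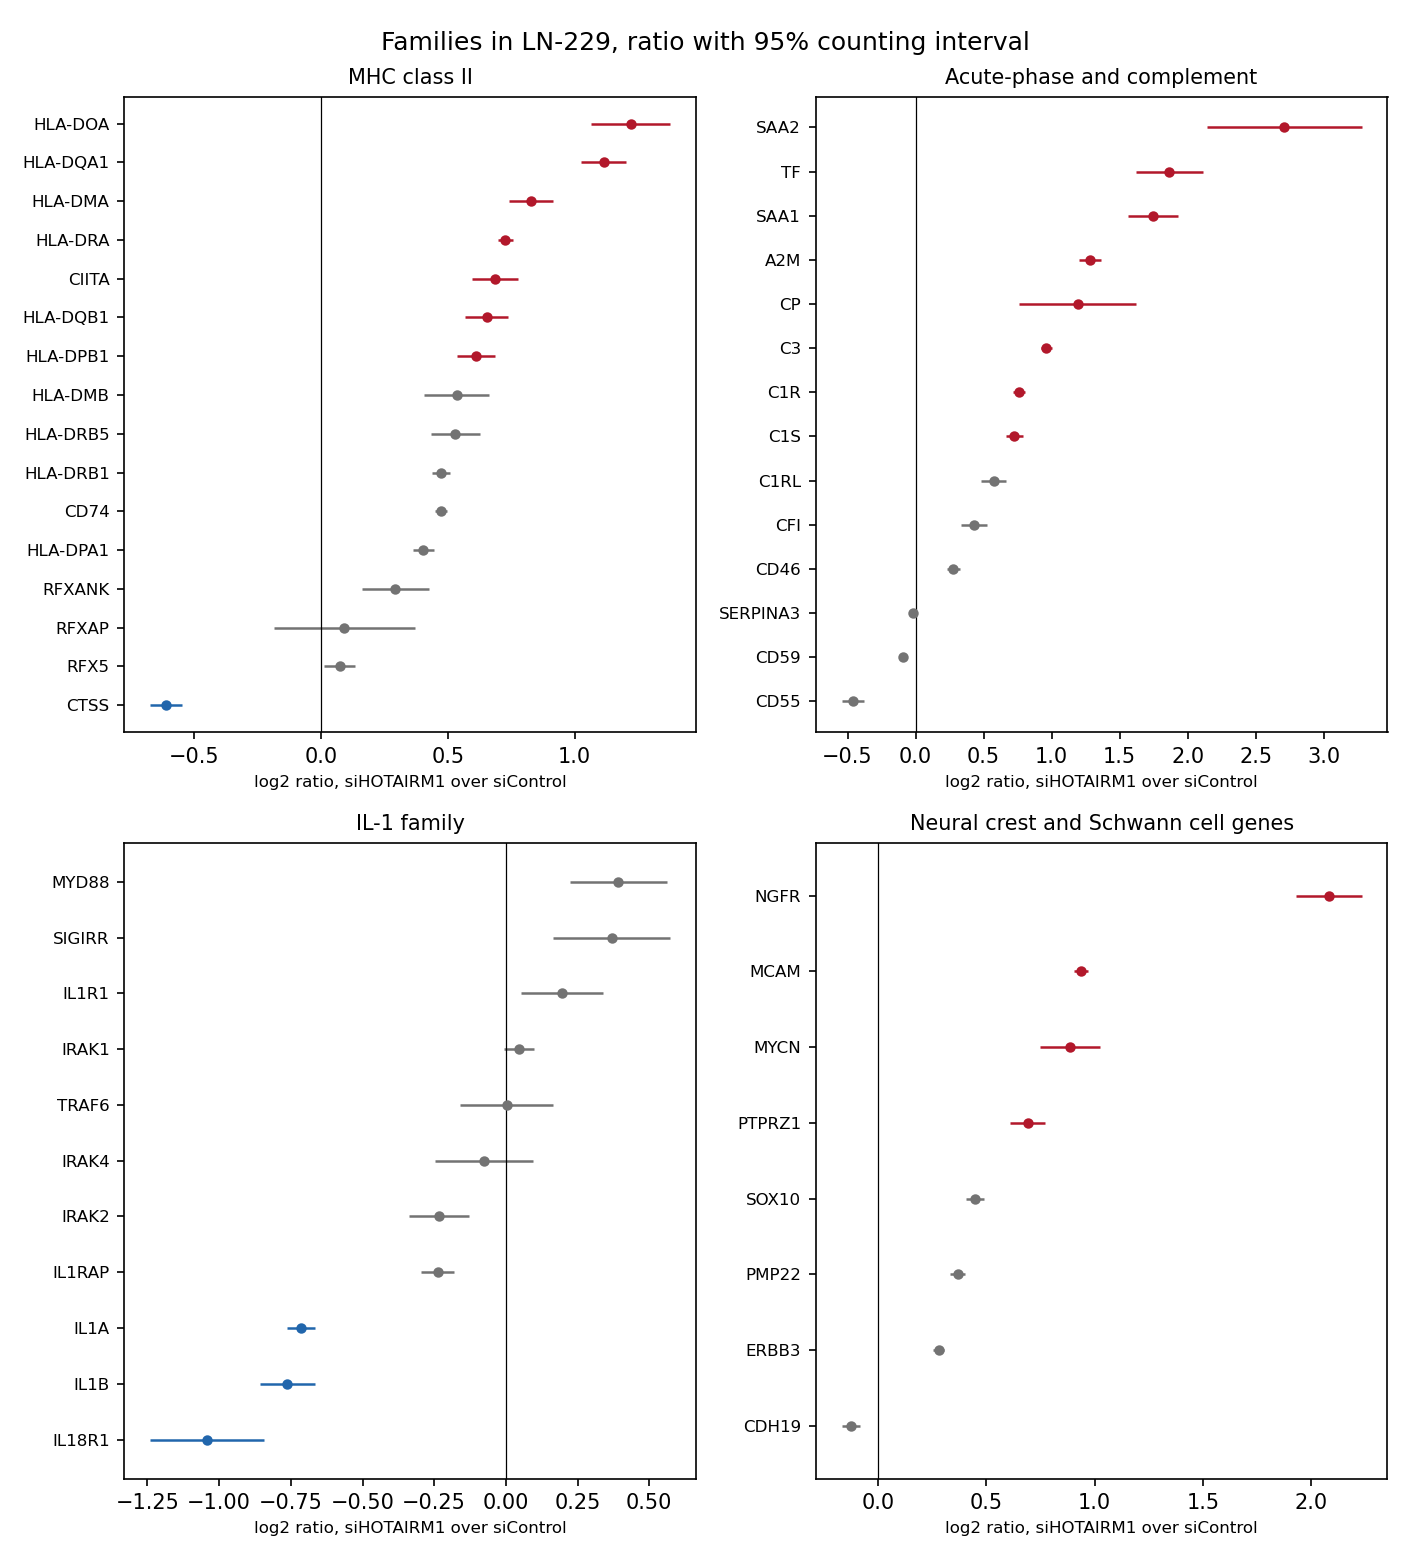
Log2 ratio of siHOTAIRM1 to siControl in LN-229, centred on the median of all genes, with 95% counting intervals, for members past the filter of 4 families: MHC class II, acute-phase and complement, IL-1 family, and 8 of the 15 neural crest and Schwann cell genes. The class II members other than CTSS lie above 0, and IL1A, IL1B and IL18R1 lie below it. Of all 15 neural crest and Schwann cell genes past the filter, 12 had a change above 0, and changes ran from -0.43 to 1.88.

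Medians of the other inflammatory lists lay below 0, with genes on both sides of it. Of 20 NF-kB genes past the filter, 1 rose and 2 fell, beside 0.848% and 0.776% over all genes, the latter being IL1A and IL1B. The riser was SOD2, the superoxide dismutase of the mitochondrial matrix, which went from 145 CPM in siControl to 315 CPM in siHOTAIRM1 cells, a ratio of 2.16 (2.11 to 2.1999). The chemokines CXCL8 (363 and 352 CPM), CXCL1 (124 and 123 CPM) and CCL2 (520.5 and 591 CPM) and the inhibitor NFKBIA (36.9 and 38.1 CPM) stayed within 1.5-fold. Of 29 interferon response genes past the filter, 0 rose and 1 fell, the RNA sensor DDX58 (9.09 to 5.71 CPM), and the median was -0.10. IFITM3, the member of the list most abundant per kb, was at 42.8 and 58.9 CPM. Of 15 antigen presentation genes of class I display, 0 passed 1.5-fold, and the median was -0.13. The 6 class I genes had a median of 0.10, with 5 above 0, and all 9 peptide processing genes were below 0, with a median of -0.19. The medians of the interferon and antigen presentation lists stayed below 0 in every scaling.

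Some genes of neural crest and Schwann cells rose as well. Of 25 in this list (written after the values were seen), 15 passed the filter, 5 rose and 0 fell, beside 0.848% and 0.776% over all genes, the median change was 0.28 and the summed level went from 914 to 1222 CPM. NGFR, the p75 neurotrophin receptor and the largest rise in log2(CPM + 1) among named genes, went from 4.79 CPM in siControl to 20.47 CPM in siHOTAIRM1 cells, a ratio of 4.23 (3.81 to 4.70). The adhesion molecule MCAM rose from 118 to 229 CPM, the receptor phosphatase PTPRZ1 from 21.0 to 34.2 CPM and the transcription factor MYCN from 6.74 to 12.6 CPM. SOX10, the factor that specifies Schwann cells and oligodendrocytes, was at 81.5 and 112 CPM, short of 1.5-fold. The neuregulin receptor ERBB3 (207 and 253 CPM) and the myelin protein PMP22 (141 and 184 CPM) were also short of it, and the cadherin CDH19 (100.1 and 92.7 CPM) lay nearer 0. NGFR was under the filter in both other lines.

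Growth factor ligands, binding proteins and receptors changed gene by gene. ERBB2, a receptor tyrosine kinase that pairs with EGFR and ERBB3, fell from 148 CPM in siControl to 82.98 CPM in siHOTAIRM1 cells, 0.555 times the control level (0.540 to 0.571). FGFR4, a fibroblast growth factor receptor, rose from 3.47 to 5.88 CPM. Of the 17 ligands of such receptors past the filter, 0 rose and 2 fell, beside 0.848% and 0.776% over all genes, and 14 were below 0, with a median of -0.23. The whole list of receptors and ligands had a median of -0.12, which stayed below 0 in every scaling. The ligands that fell were the EGFR ligand EREG (15.02 to 9.75 CPM) and PDGFB (1.52 to 0.673 CPM), the latter past the filter through siControl alone. The EGFR ligand TGFA was at 551 and 488 CPM and FGF2 at 45.8 and 37.6 CPM.

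IGFBP3, which binds insulin-like growth factors in plasma and tissue, had the second largest fall in log2(CPM + 1) among genes with an annotated symbol. It went from 18.9 CPM to 4.60 CPM, 0.242 times the control level (0.218 to 0.267). IGFBP5 moved the opposite way, from 91.4 to 142 CPM, and the other 4 genes of this list past the filter (a list written after the values were seen) stayed within 1.5-fold. In the activin pathway, another such list with 10 genes past the filter, the ligand subunit INHBA fell from 86.4 to 42.5 CPM (0.487, 0.469 to 0.505) while follistatin (FST), the secreted trap for activin, rose from 2.65 to 5.22 CPM. The 5 activin receptors past the filter did not pass 1.5-fold. HHIP, a surface decoy for Hedgehog ligands and itself a Hedgehog target, fell from 16.2 to 6.17 CPM (0.377, 0.344 to 0.414). The other 8 Hedgehog genes past the filter (a list also written after the values were seen) stayed within 1.5-fold, with the receptor PTCH1 at 88.7 and 71.9 CPM and the target GLI1 at 5.42 and 6.20 CPM. Among 28 TGF-beta and BMP genes, TGFBR3, the co-receptor betaglycan, rose from 8.54 to 14.96 CPM and INHBA was the one that fell.

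Matrix genes moved in both directions. Of 49 matrix and adhesion genes past the filter, 2 rose and 2 fell, beside 0.848% and 0.776% over all genes. Among the 15 collagens of this list past the filter, 1 rose and 1 fell. The collagen genes COL5A3, COL9A3 and COL11A2, which are outside the list, also rose. They were singled out after their values were seen, and the other collagen genes outside the list were not counted. COL11A1, a collagen chain that partners COL11A2 in fibrils, rose from 308 CPM in siControl to 600.0 CPM in siHOTAIRM1 cells, and the small proteoglycan BGN from 2.92 to 5.98 CPM. COL6A3, a chain of the microfibrillar collagen VI, fell from 3.16 to 0.212 CPM, 0.0663 times the control level (0.0430 to 0.102), while its partner chains COL6A1 (18.8 and 22.9 CPM) and COL6A2 (12.1 and 15.9 CPM) stayed within 1.5-fold. The integrin subunit ITGA3, a laminin receptor, fell from 349.5 to 231 CPM. THBS2, an anti-angiogenic glycoprotein, was at 1229 and 1753 CPM and fibronectin (FN1) at 642 and 901 CPM. Of 23 proteases and inhibitors past the filter, 3 rose and 0 fell. SERPINE2, an inhibitor of thrombin and plasminogen activators, went from 677 to 1316 CPM, a ratio of 1.93 (1.91 to 1.94). The metalloprotease ADAMTS1 rose from 19.9 to 33.6 CPM, and the third was A2M. The gelatinase MMP2 (383 and 304 CPM) and its activator MMP14 (27.4 and 36.3 CPM) stayed within 1.5-fold. Of 18 genes of mesenchymal transition, CEBPD was the only one past 1.5-fold, with ZEB1 at 37.1 and 27.3 CPM and CD44 at 329 and 304 CPM.

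TXNIP, an alpha-arrestin that slows glucose uptake and binds thioredoxin, was the second largest rise in log2(CPM + 1). It went from 4.93 CPM in siControl to 18.3 CPM in siHOTAIRM1 cells, a ratio of 3.67 (3.31 to 4.07). Its relatives ARRDC3 (18.1 and 22.95 CPM) and ARRDC4 (1.57 and 2.46 CPM) and the glucose-sensing partner factors MLX (22.2 and 26.9 CPM) and MLXIP (18.3 and 21.9 CPM) stayed within 1.5-fold, in a list written after the values were seen. Part of the promoter of TXNIP is shown because factors of the MLX family are known to bind paired E-box-like elements in it, and capitals mark the letters CACGNG.
TXNIP: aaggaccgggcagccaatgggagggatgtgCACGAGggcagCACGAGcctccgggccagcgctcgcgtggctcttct
The stretch lies at chr1:145996621-145996697 on the minus strand (RefSeq, GRCh38.p14). CACGNG occurred on either strand in 30.5% of the 35116 promoter windows, and a pair with 5 bases between them in 0.0570% (20 windows). Of the 6 genes with that pair past the LN-229 filter, 1 rose, beside 75 of all 9174 genes with a window. The riser was TXNIP, whose rise was known beforehand and whose own promoter the pattern marks, so its count carries no weight.

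Metabolic families gave single genes on both sides of 0. Among 41 glycolysis and hypoxia genes past the filter, the hexokinase HK2 rose from 20.2 to 32.0 CPM and the hypoxia factor EPAS1 from 3.59 to 6.32 CPM, while the carbonic anhydrase CA12 fell from 3.73 to 2.16 CPM. Of 36 ATF4 and amino acid response genes, 2 rose and 2 fell: the serine synthesis enzyme PSAT1 (10.404 to 16.4 CPM) and the transsulfuration enzyme CBS (3.31 to 6.07 CPM) were higher, and the mitochondrial folate enzyme MTHFD2 (60.7 to 37.3 CPM) and asparagine synthetase ASNS (33.9 to 21.4 CPM) were lower. The known ATF4 targets therefore did not move as a block. Over all genes 0.848% rose and 0.776% fell. Of 40 genes of the antioxidant and NRF2 list, 3 rose and 0 fell. These were SOD2, the extracellular dismutase SOD3 (1.71 to 4.19 CPM) and TXNIP, which binds thioredoxin and is not itself an antioxidant enzyme. The NRF2 targets NQO1 (127 and 122 CPM) and TXNRD1 (141 and 152 CPM) and the cytosolic dismutase SOD1 (42.8 and 41.2 CPM) stayed near their control levels.

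Enzymes that make and spend NAD and methyl groups moved in both directions. Of 8 NAD salvage genes past the filter, 2 rose and 1 fell, and of 14 genes of methionine and polyamine synthesis, 1 rose and 2 fell, beside 0.848% and 0.776% over all genes. NAMPT, the rate-limiting enzyme of NAD salvage, rose from 88.3 CPM to 144 CPM, and its processed copy NAMPTP1 from 61.9 to 99.8 CPM. Reads of the pair are hard to separate, so the division between them is uncertain. NNMT, which belongs to both lists, rose with it, and NT5E, the surface enzyme that turns AMP into adenosine, fell from 194 to 126 CPM. MAT2B, the regulatory subunit of the enzyme that makes S-adenosylmethionine, fell from 20.6 to 11.5 CPM, and spermine synthase SMS from 59.8 to 35.2 CPM. The catalytic subunit MAT2A was at 127 and 135 CPM and ornithine decarboxylase ODC1 at 46.6 and 48.0 CPM. Of 39 lysosomal genes past the filter, 0 rose and 2 fell, while 28 were above 0 and the median change was 0.11. LAMP1, a main glycoprotein of the lysosomal membrane, fell from 89.3 to 42.4 CPM (0.471, 0.454 to 0.489) and the sulfatase IDS from 45.6 to 26.1 CPM, while the close relative LAMP2 was at 117 and 107 CPM. The NAD, methionine and lysosome lists were also written after the values were seen. All 8 metallothionein and zinc transport genes past the filter were below 0, with a median of -0.22 that stayed below 0 in every scaling, and 1 of them, the metal-binding MT1E, fell (3.10 to 1.71 CPM).

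Many large families held few or no genes past 1.5-fold in LN-229. None of the 76 respiratory chain genes, 77 mitochondrial ribosomal protein genes or 79 cytosolic ribosomal protein genes past the filter passed 1.5-fold. Over all genes 0.848% rose and 0.776% fell. At these shares a list of this size would hold few calls, so counts of 0 here and below do not set a family apart from all genes. Respiratory chain genes split evenly, with 38 of 76 above 0, and the 13 subunits encoded in mitochondrial DNA were listed at 0 in the files, so a listed 0 need not mean an absent RNA. In U251, 37 respiratory chain genes, 20 mitochondrial ribosomal and 45 cytosolic ribosomal protein genes were lower past 1.5-fold, beside 7.70% of all genes there. This difference between lines was not tested. Cytosolic ribosomal protein genes in LN-229 had a median of 0.07, with 70 of 79 above 0. Likewise 0 of 53 genes of DNA replication and mitosis, 0 of 36 genes of DNA break repair and 0 of 27 p53 targets passed 1.5-fold, with medians of -0.02, -0.06 and -0.05. The 39 genes of cholesterol synthesis, the 15 heat shock chaperones and the 28 AP-1 and ERK feedback genes gave 0 calls, with medians of 0.06, 0.05 and 0.05. The 23 ER chaperones and unfolded protein response genes gave 0 calls and a median of 0.13. Of 27 YAP and TEAD genes, 0 rose and 2 fell, the targets IGFBP3 and NT5E, while CTGF was at 40.4 and 43.2 CPM. The RNA silencing machinery that uses the siRNAs (17 genes) and the 5 microRNA host genes past the filter gave 0 calls. Medians of the respiratory chain, mitochondrial ribosome, silencing, YAP and microRNA host lists lay so near 0 that their sign changed with the scaling.

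Several of the largest changes belonged to none of these families. SCARA5, a scavenger receptor that takes up ferritin, went from 10.1 CPM in siControl to 1.501 CPM in siHOTAIRM1 cells, 0.147 times the control level (0.124 to 0.174), the largest fall in log2(CPM + 1) among genes with an annotated symbol. LCP1, the plastin that bundles actin in blood cells and many tumour lines, fell from 3.99 to 1.24 CPM, and AHNAK2, a giant scaffold protein, from 313 to 149 CPM. The sodium channel SCN9A went from 5.41 to 2.14 CPM, the bicarbonate transporter SLC4A8 from 8.60 to 4.19 CPM and the sphingomyelin synthase SGMS2 from 9.33 to 4.21 CPM. The signal proteins TRAF1 (15.7 to 7.73 CPM), an adaptor of TNF receptors, LRRK1 (3.08 to 1.28 CPM), a kinase, and DAZAP2 (50.4 to 24.3 CPM), a small adaptor protein, fell too, as did filaggrin FLG (2.73 to 0.991 CPM), known from the outer layer of skin. On the other side, the stress kinase HIPK2 rose from 78.9 to 169.7 CPM, a ratio of 2.13 (2.07 to 2.19). The transcriptional repressor NACC2 rose from 13.6 to 31.2 CPM and WBP1L, a WW-domain binding membrane protein, from 6.83 to 15.2 CPM.

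Some non-coding and repeated genes also passed 1.5-fold. Of 379 annotated long non-coding RNAs past the filter, 2 rose and 3 fell, HOTAIRM1 among them, and 0 of 19 glioma lncRNAs of the list passed 1.5-fold, with MALAT1 at 3374 and 4686 CPM. Of 916 clone-named genes, 1 rose, XXbac-BPG246D15.9 (1.72 to 4.51 CPM), and 13 fell, beside 0.848% and 0.776% over all genes. The 2 largest of these falls were CH507-513H4.3 (12.0 to 1.24 CPM) and CH507-513H4.6 (14.9 to 3.90 CPM), which share a clone name and may share reads. Of 99 small and ribosomal RNA genes, the ribosomal RNA copy RNA5-8S5 rose (318 to 628 CPM) and the snoRNA copy SNORD3B-2 fell (12.1 to 7.32 CPM), both members of near-identical copies. Of 31 clustered histone genes, HIST2H3D rose (6.37 to 11.003 CPM), again with close copies elsewhere.

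Some genes past 1.5-fold were neighbours. Among 208 such genes with a position, 10 pairs of successive genes of this set lay within 100 kb, and 9 of these moved the same way. Genes short of 1.5-fold may lie between the members of a pair. Several pairs are in the class II region described above, and the number of pairs among other genes was not counted. The pairs included SAA1 with SAA2, C1R with C1S, IL1A with IL1B, HLA-DQA1 with HLA-DQB1, and the serpins SERPINB2 (3.32 to 1.42 CPM) and SERPINB7 (1.44 to 0.625 CPM, past the filter through siControl alone), which both fell. The pair that moved in opposite directions was SAA2 and the receptor gene MRGPRX4 (6.74 to 3.77 CPM).

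Beside the other lines, the LN-229 response was shared in part. Of the 117 genes that rose in LN-229, 88 passed the filter in T98G, where 16 were higher and 4 lower, and 74 passed it in U251, where 31 were higher and 2 lower. The 16 are 18.2% of those 88 and 8.33% of the 192 genes higher in T98G, and the 31 are 41.9% of those 74 and 3.98% of the 779 higher in U251. Over all genes, 1.40% were higher in T98G and 5.83% in U251. Of the 107 genes that fell, 26 of 72 (36.1%) were also lower in T98G and 32 of 72 (44.4%) in U251, which is 16.1% of the 161 and 3.11% of the 1030 genes lower there, beside 1.18% and 7.70% lower over all genes. Of the same 107, 4 were higher in T98G and 1 in U251. Across genes past both filters, the correlation of changes with LN-229 was 0.28 for T98G (12540 genes) and 0.32 for U251 (12371 genes). This describes the libraries, since genes are not independent replicates. The lines share no library, but they share the siRNA pools.

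In all 3 lines, 12 genes were higher and 20 lower past 1.5-fold. TXNIP was among the 12, at 102 and 159 CPM in T98G and 4.84 and 34.2 CPM in U251. HIPK2 was too, with changes of 1.08, 0.97 and 1.31 in LN-229 and then T98G and U251. The others were WBP1L, BMF, RNA5-8S5, SEMA6B, STK40, UNKL, SLC44A1, ADAMTS1, SNHG16 and TSPAN9. SEMA6B was under 1 CPM in siControl in LN-229 and T98G, so there it passed the filter through the siHOTAIRM1 library. DAZAP2 was among the 20 lower genes, with changes of -1.04, -1.003 and -1.51, as were AHNAK2 (-1.09, -0.79 and -1.01) and LAMP1 (-1.07, -0.87 and -0.65). Enzymes in this group included MAT2B, SMS, MTHFD2, NT5E and CTSS, and it also held TRAF1, SLC4A8, EMP1, EFCAB14, RP11-312J18.5, TMEM154, SYT11, TERF2IP, SEC23A, MT1E and KPNA6. These 32 genes became 50 with a pseudocount of 0.1 CPM and 1, DAZAP2, with a 2-fold threshold.

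Of the class II, acute-phase, complement, IL-1 and neural crest lists, CTSS, which fell, was the only gene past 1.5-fold the same way in all 3 lines. In U251, both acute-phase proteins past the filter were higher past 1.5-fold, CP (1.09 to 2.67 CPM) and SERPINA3 (3.75 to 12.4 CPM). Many could not be compared: 22 of the 117 genes that rose and 25 of the 107 that fell were under 1 CPM in both other lines. SOD2 moved in opposite ways, from 116 CPM in siControl to 45.3 CPM in siHOTAIRM1 cells of T98G, and it stayed at 67.3 and 60.9 CPM in U251. NNMT was at 49.6 and 28.2 CPM in T98G, and SOCS3 changed by 0.997 here, -0.43 in T98G and -0.25 in U251 cells. IGFBP3 was lower in T98G as well (82.9 and 42.5 CPM), with a change of 0.25 in U251. Differences between lines rest on 1 library per line and treatment and were not tested.

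**Figure D5:**
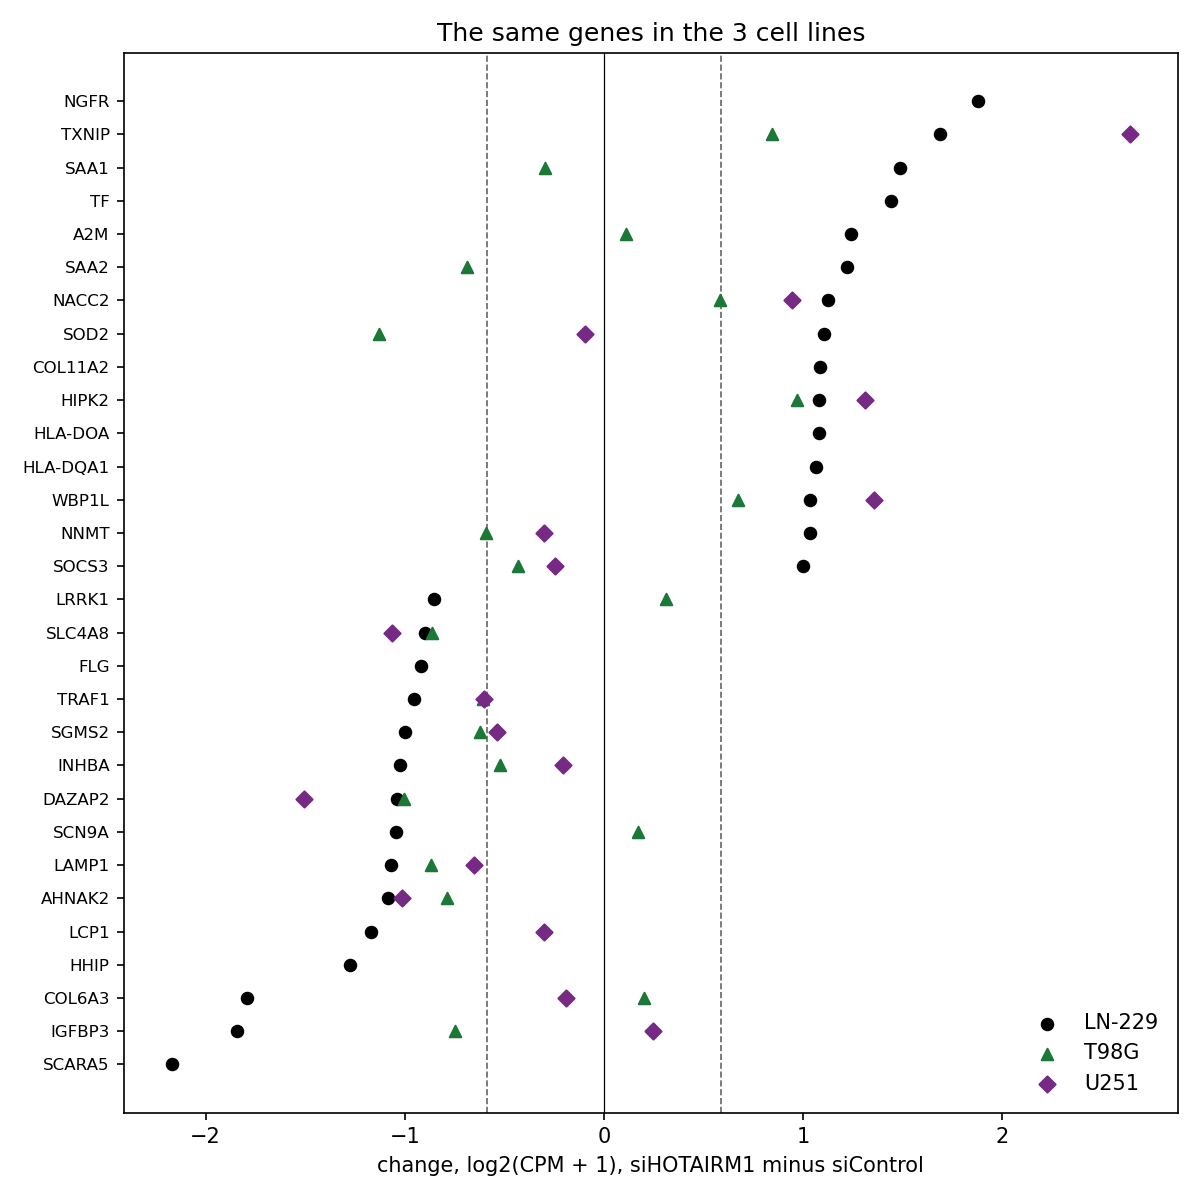
Centred log2 change, siHOTAIRM1 minus siControl, of 30 genes in LN-229 (circles), T98G (triangles) and U251 (diamonds), each line centred on its own median; points are left out where the mean of the line is under 1 CPM. TXNIP, HIPK2 and WBP1L lie above 0 and AHNAK2, LAMP1 and DAZAP2 below 0 in all 3 lines, whereas SOD2 lies at 1.10 in LN-229 and -1.13 in T98G.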

How the data were processed

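The deposited values are CPM computed by the authors in Partek Flow: alignment used STAR 2.4.1d on hg38, then Bowtie 2 for what was left, and reads were quantified on Ensembl genes with an expectation-maximization algorithm that divides shared reads. The authors added 0.0001 to each value, which was subtracted here. The listed genes sum to 47.0% of the CPM scale in LN-229 siControl and 48.5% in LN-229 siHOTAIRM1, so the scaling total of the authors holds further reads. The CPM of 1 read came from the step size of low values: 91.4% and 91.9% of values up to 20 reads lay within 0.1 of a whole read.

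Level intervals are 95% Wilson intervals of the reads, and ratio intervals are normal intervals of the log ratio of reads. The scripts were tested on simulated data. Positions, lengths and classes are from GENCODE 44 (32766 listed genes matched by symbol, 1826 by an older symbol, 24482 unmatched), and promoters from RefSeq (GRCh38.p14). Python 3.11.15, numpy 2.4.6, pandas 2.3.3 and matplotlib 3.10.9 were used.

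Named genes are those the study follows, the 15 largest rises and 15 largest falls with an annotated symbol and a counting interval leaving out 0, and, per family, the members past 1.5-fold (the 2 largest in each direction and the most abundant where there were more than 4). Others were added after their values were seen to show more of a family. Some genes are not reported here. Of 43 gene lists with 1361 entries, 1359 were found. Members and lists were chosen with earlier results of these data known.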

Additional observations from a re-analysis of the deposited data

Results flagged for a closer look

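Some changes in LN-229 had the opposite direction in another line, past 1.5-fold in both. The difference of changes, LN-229 minus T98G, was 1.91 for SAA2, 2.23 for SOD2 and 1.63 for NNMT. SAA2, a serum amyloid protein with a close copy in SAA1, went from 7.42 to 3.54 CPM in T98G.

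For the histone gene HIST2H3D, LN-229 minus U251 gave 2.13, with 20.2 CPM in U251 siControl and 6.54 CPM in U251 siHOTAIRM1 cells. For the clone-named genes CH507-513H4.3 and CH507-513H4.6, LN-229 minus T98G gave -8.83 and -8.17. In T98G the former was at 2.24 CPM in siControl and 219 CPM in siHOTAIRM1 cells and the latter at 2.62 and 277 CPM. Each line and treatment has 1 library, and these differences were not tested.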

How the results depend on the processing

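Alternatives were a pseudocount of 0.1 CPM, no centring, levels rescaled to the sum of the listed genes, trimmed-mean centring, 3 other filters, protein-coding genes alone and a 2-fold threshold. No change or median past 1.5-fold reversed, although some family medians near 0 changed sign, and the scalings moved the median of all genes by at most 0.03. With a pseudocount of 0.1 CPM, HOTAIRM1 changed by -1.01 (main value -0.63), and 221 genes were higher and 173 lower (main counts 117 and 107). At 2-fold, 15 were higher and 15 lower, and 15 genes of the family lists were past the fold (67 at 1.5-fold). The genes past the fold in all 3 lines, 32 in the main setting, were 50 with a pseudocount of 0.1 CPM and 1 at 2-fold, alternatives chosen after seeing the data. These follow from the smaller pseudocount, which widens changes of scarce genes, and from the stricter threshold. Under the other settings 86 to 134 genes were higher and 74 to 151 lower. Of 75 named genes past 1.5-fold, the same 75 stayed past it the same way with a pseudocount of 0.1 CPM, rescaling or trimmed-mean centring, and 72 without centring. TGM2 stayed between -0.47 and -0.52. No paired analysis was possible because each LN-229 group holds 1 library (a fit over the 3 lines was not made), and no library could be left out for the same reason. Depth limits genes near 0.03 CPM, where 3 reads decide a level.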

Other observations

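Genes outside the lists also moved in LN-229, and the following were chosen after their values were seen. The B cell gene FCRLA went from 18.6 CPM in siControl to 38.4 CPM in siHOTAIRM1 cells and the follicular dendritic cell secreted protein FDCSP from 226 to 372 CPM. The heparin-binding growth factor MDK rose from 6.08 to 11.9 CPM. Higher too were HAPLN1, a link protein of hyaluronan and proteoglycans (38.6 to 60.5 CPM), the collagen chain COL9A3 (27.4 to 42.4 CPM) and the calcification inhibitor MGP (0.453 to 1.63 CPM), past the filter through siHOTAIRM1 alone.

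Among the falls, SPP1, the secreted phosphoprotein osteopontin, went from 72.0 to 45.9 CPM and the lipase LPL from 9.97 to 5.98 CPM. The sodium channel SCN2A fell from 7.25 to 4.11 CPM beside SCN9A, and the potassium channel KCNMA1 from 44.4 to 26.9 CPM. The receptors OPRD1 (41.4 to 26.8 CPM) and FZD6 (53.9 to 32.7 CPM), which bind opioid peptides and Wnt ligands, fell as well.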
